A study of Homo sapiens with 4 samples.

Results

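The Mediator complex was examined through the mRNAs of its subunits in MDA-MB-231 Fluc cells. Its members were the rows of the deposited gene table whose symbol is MED followed by a number, with or without a final L. This rule found 29 of the 13957 rows, and all 29 genes were annotated as protein coding. GENCODE release 44 holds 30 gene names of this form, and the other one, MED12L, was not among the rows of the table. The study treated these cells for 2 h with 50 μM cordycepin, the adenosine analogue 3'-deoxyadenosine, in 2 samples, or with the vehicle DMSO in 2 samples. MDA-MB-231 is a triple-negative breast cancer line with mesenchymal features, and the Fluc derivative used for all 4 samples carries an inserted luciferase gene. Total RNA was depleted of ribosomal RNA and sequenced as stranded libraries. The labels do not say whether the samples of a group came from separate cultures.

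The table gives 1 expression value per gene, headed logCPM, and no value for a single library. From this header it was taken as the authors' mean over the libraries as log2 CPM (read counts scaled to library size). The remaining measurements of the table are the authors' own comparison of cordycepin with DMSO, which was not used here. The values below therefore describe the level of each mRNA over treated and untreated cells together, with no replicate error, and the change of a subunit with cordycepin is not given. The depth of each library is unknown. For the same reason it cannot be said which neighbours in the order of levels differ by more than the spread between samples, and no test was made. All values come from bulk RNA, in which the share of cells that hold an mRNA and its amount per cell cannot be told apart. The line was checked with fixed markers, and VIM, CD44, AXL, CAV1 and ANXA1 of mesenchymal breast cancer cells all lay at or above percentile 96.2 of the table per kilobase. Of 5 luminal or epithelial markers, the receptor genes ESR1 and PGR were not among the rows, and the mean log2 CPM was 2.34 for FOXA1, 3.68 for CDH1 and 4.48 for GATA3. GATA3 was not low among the rows, at percentile 55.4 per kilobase.

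Mediator carries signals from DNA-bound transcription factors to RNA polymerase II at promoters. Its head and middle modules contact the polymerase, its tail offers surfaces to activators, and MED14 runs through the complex as a backbone that joins the modules. A kinase module of MED12 or MED12L, MED13 or MED13L, cyclin C and CDK8 or CDK19 binds the core reversibly. Several subunits are contact points for factors that respond to growth factors or hormones.

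Levels were compared between genes per kilobase of exon, by dividing the mean CPM by the gene length given in the table. On this scale the 29 subunits had a median of 2.81 log2 units, against 2.43 over all rows, and 18 of them were above the median of all rows. With the rows in the lowest 25% of mean log2 CPM left out of the table, the order turned, and the median of the 28 remaining members less that of the remaining rows was -0.18. Between the 25th and 75th percentiles of all rows lay 22 subunits, with 4 above and 3 below. The highest was MED14, with 22.0 CPM per kilobase, and the lowest was MED17, with 0.495, which is a 44.5-fold range among genes whose proteins are found in 1 complex. Together the 29 genes accounted for 1360 CPM.

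**Figure D1:**
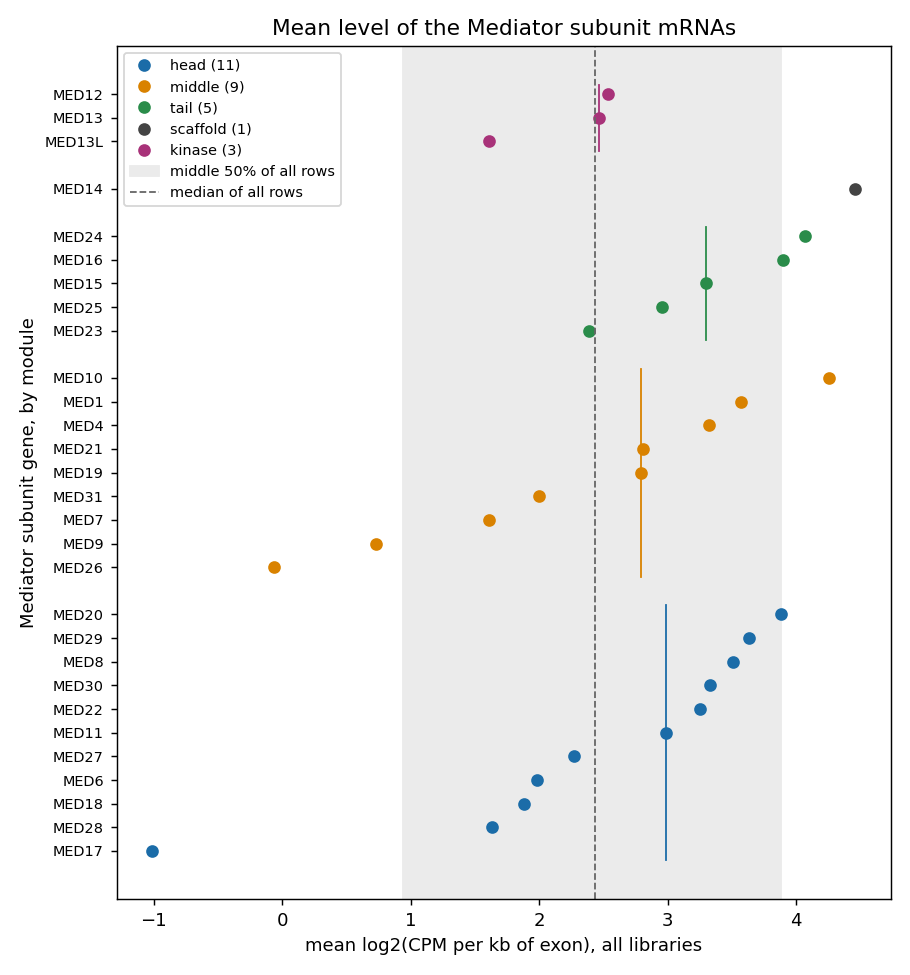
Each point is the mean level of 1 Mediator subunit mRNA over all libraries, as log2 CPM per kilobase of exon on the horizontal axis, with genes grouped and coloured by module on the vertical axis. Vertical coloured lines are module medians, the dashed line is the median of all 13957 rows and the grey band runs from their 25th to their 75th percentile. MED14 at 4.46 and MED10 at 4.25 stand highest, and MED17 at -1.01 and MED26 at -0.06 stand lowest.

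MED14, the backbone, lies on the minus strand of chromosome X (40648305 to 40735858, GRCh38) and has 31 exons in its canonical transcript. Its mean log2 CPM of 7.73 was the highest of the 29 subunits also before division by length, and its 4.46 log2 CPM per kilobase was at percentile 82.5 of all rows. An antisense gene, MED14OS, covers 2.19% of its annotated exon bases and had a mean log2 CPM of 0.78. MED14 thus stood near the top of the complex on each scale, in rank 1 per kilobase of all exons and rank 4 per kilobase of the canonical transcript.

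The tail module, which many activators contact, had the highest median per kilobase of the modules with several members. Before division by length the kinase module was above it, with a median of mean log2 CPM of 6.13 against 5.98. All 5 tail subunits were in the table, their median was 3.30 log2 CPM per kilobase, and 4 of them were above the median of all rows. MED24 (chromosome 17, 40019097 to 40061215) had 4.06 log2 CPM per kilobase. MED16, its neighbour in the lower tail, had 3.90. MED15, known as a partner of the sterol-responsive factor SREBP, followed with 3.30. MED25, a target of the viral activator VP16, had 2.95, and MED23, through which the ERK-regulated factor ELK1 reaches the complex, was lowest with 2.38 (percentile 49.0). From MED24 to MED23 the levels spanned 3.21-fold, the narrowest range of the 3 core modules on this scale. The tail also had the fewest genes, 5 against 11 in the head and 9 in the middle. A range tends to widen with the number of genes, so the ranges are not directly comparable.

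The head module, the part that meets the polymerase and its general factors, had 11 subunits with a median of 2.99 log2 CPM per kilobase, and 6 of them were above the median of all rows. The module had a wide range. MED20 had 3.88, and its partner MED18, with which it forms a heterodimer, had 1.88. MED8, which tethers this pair to the rest of the head, had 3.51. MED11 and MED22, another pair, stood closer to each other, at 2.99 and 3.25. MED29 had 3.63 and MED30 had 3.32, whereas MED27, MED6 and MED28 had 2.27, 1.99 and 1.63. MED17, the central subunit of the head (chromosome 11, 93784227 to 93814963), had -1.01 log2 CPM per kilobase, at percentile 4.89 of all rows. The mRNAs of the partners MED20 and MED18 thus differed 4.01-fold per kilobase of all exons, which is more than those of MED11 and MED22. Per kilobase of the canonical transcript MED11 and MED22 were also close, at 3.81 and 4.09, against 4.29 for MED20 and 2.02 for MED18. The lengths of MED11 and MED22 in the table were 1475 and 7235 bases. Before division by length their mean log2 CPM was 3.55 and 6.11, against 5.60 for MED20 and 2.89 for MED18.

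The middle module had 9 subunits with a median of 2.79 log2 CPM per kilobase, and 5 of them were above the median of all rows. MED10 (chromosome 5, 6371874 to 6378571), a small subunit, had 4.25. MED1, which nuclear receptors bind, had 3.57, and MED4 had 3.32. MED21 and MED7 form the flexible hinge of the module, and their levels were 2.81 and 1.61. MED19 had 2.79 and MED31 had 2.00. The module also held both other low members, MED9 with 0.73 and MED26 with -0.06. MED26 (chromosome 19, 16574907 to 16629062) recruits elongation factors, and its mean log2 CPM of 2.35 was the lowest of all 29 subunits before division by length. MED1 and MED26, which are not present in every form of the complex, differed 12.4-fold per kilobase of all exons and 7.81-fold per kilobase of the canonical transcript.

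Of the 4 kinase module genes of this name, 3 were in the table, with a median of 2.47 log2 CPM per kilobase. MED12 (chromosome X, 71118556 to 71142454), which activates CDK8 together with cyclin C, had 2.54 with the 7425 exon bases given in the table. In GENCODE release 44 its exons cover 17341 bases, which puts it at 1.31, below MED13 (2.47) and MED13L (1.80) on the same lengths. MED12 was thus the highest of the 3 with the table's lengths and the lowest with those of release 44, an alternative chosen after seeing the data. MED13 and MED13L are paralogues that tie the module to the core, and their order also depended on the length used. Per kilobase of all exons MED13 had 2.47 and MED13L 1.61. Per kilobase of the canonical transcript MED13 had 2.74 and MED13L 3.53, and before division by length MED13L was also higher, with a mean log2 CPM of 6.84 against 6.13. The MED13L gene (chromosome 12, 115953872 to 116277719) spans 324 kb, and its exon length in the table, 37364 bases, was 3.78 times that of its canonical transcript. The partners in the module, which are not named MED, had levels from 1.90 to 3.11. CCNC, which encodes cyclin C, had 3.11 log2 CPM per kilobase, and the alternative kinases CDK8 and CDK19 had 2.22 and 1.90. Before division by length CDK19 was the higher of these kinases, with a mean log2 CPM of 4.83 against 4.04 for CDK8.

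Gene length therefore set the place of several subunits. For 7 of the 29 genes the length in the table was more than 2 times that of the canonical transcript. These were MED13L, MED25, MED17, MED15, MED27, MED9 and MED24. Such genes were not counted among all rows. The median of all rows also rose with the canonical length, from 2.43 to 3.04. With the canonical length, MED24 had the highest level at 5.07 log2 CPM per kilobase, followed by MED10 at 5.01, MED15 at 4.93 and MED14 at 4.73. The tail then had a median of 4.67, the head 3.75, the middle 3.25 and the kinase module 2.74. The range from the highest to the lowest subunit narrowed from 5.47 to 4.38 log2 units. MED17 and MED26 remained the lowest pair, at 0.69 for each.

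**Figure D2:**
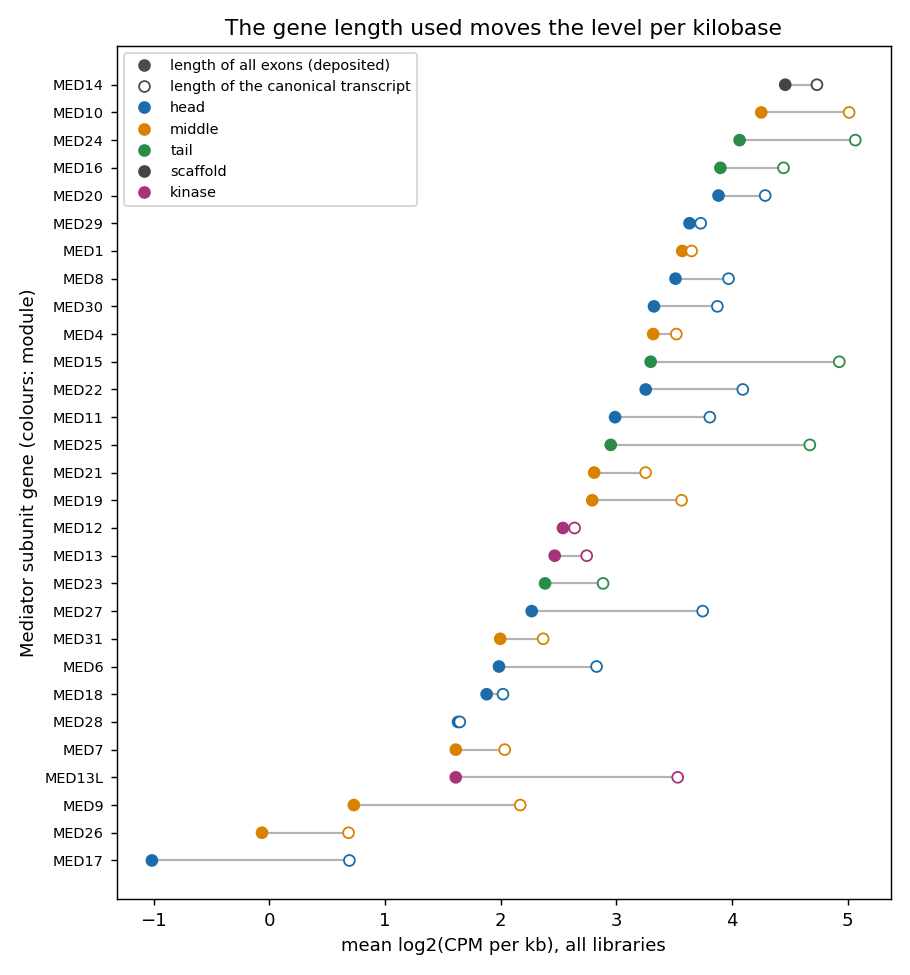
Filled points give the mean log2 CPM per kilobase of all exons, and open points the same per kilobase of the canonical transcript, for each Mediator subunit gene on the vertical axis, coloured by module. The grey lines join both values of a gene, and are longest for MED13L (1.61 and 3.53), MED25 (2.95 and 4.67), MED17 (-1.01 and 0.69) and MED15 (3.30 and 4.93).

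Some of these genes share exon bases with other annotated genes. In GENCODE release 44, exons of other genes on the same strand cover 41.9% of the exon bases of MED26 and 12.98% of those of MED17, the pair with the lowest levels. They also cover 25.3% of the exon bases of MED20, which was at percentile 75.0, and 7.51% of those of MED6, and under 5% in the other 25 genes. Exons on the opposite strand cover more than 5% in 10 genes, most of all in MED31 (58.4%), MED11 (36.3%) and MED28 (32.1%). Overlap was not counted for the other rows, so these counts have no share over all genes beside them. How reads in such shared stretches were assigned is not given in the sources used here, and the part of overlap in these levels was not tested.

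RNA polymerase II and the general factor TFIID act at the same promoters and were set beside Mediator as lists. All 12 listed polymerase subunits were above the median of all rows, with a median of 4.78 log2 CPM per kilobase. They ran from POLR2F at 2.79 to POLR2L at 7.35, and 7 of the 12 lay above MED14, the highest Mediator gene. The lowest, POLR2F, was close to the Mediator median of 2.81. With the canonical length POLR2F had 4.55, against a Mediator median of 3.56, and POLR2D was then the lowest, at 3.41. The 14 listed TFIID genes had a median of 2.76, from TAF12 at 0.81 to TAF9 at 4.98, and 9 of them were above the median of all rows. The Mediator values lay within the range of TFIID for most members, with MED9, MED26 and MED17 below its lowest gene. With canonical lengths TAF12 was at 1.62 and MED9 at 2.17, and only MED26 and MED17 lay below TAF12. Per kilobase of the canonical transcript the medians were 5.57 for the polymerase, 3.56 for Mediator and 3.21 for TFIID. Before division by length the medians of mean log2 CPM were 5.73, 5.09 and 5.25 in the same order. On that scale the highest polymerase gene was at 7.91 and MED14 at 7.73. The Mediator median was thus above that of TFIID with either length, and below it only without division by length. Without that division the polymerase median was also nearer to those of the other lists. The differences between these lists were not tested.

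**Figure D3:**
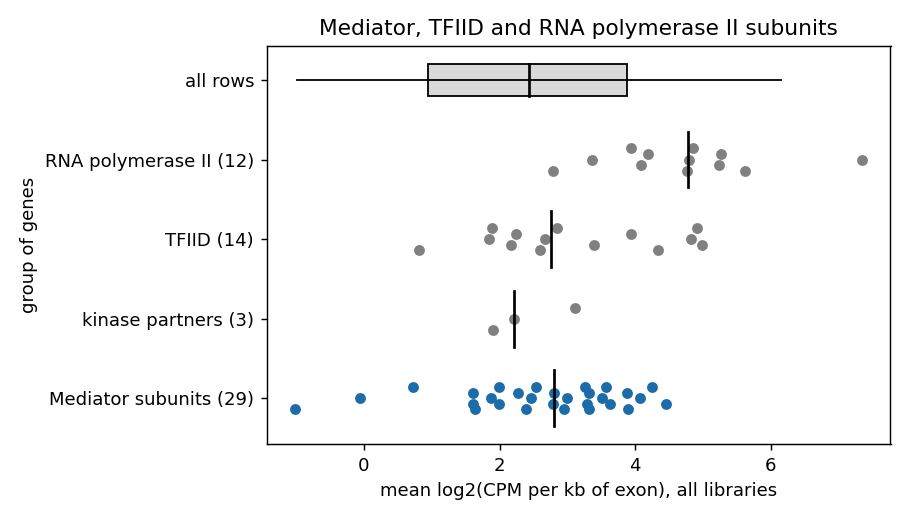
Points are the mean levels of single genes over all libraries, as log2 CPM per kilobase of exon, with 1 line of points per group of genes and a black bar at each median. The box gives the 25th, 50th and 75th percentiles of all 13957 rows and its whiskers the 5th and 95th. The median of the polymerase subunits is 4.78, against 2.81 for Mediator and 2.76 for TFIID.

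The members share little in position. They lie on 14 chromosomes, with 6 on chromosome 17 (MED1, MED9, MED11, MED13, MED24 and MED31), 4 on chromosome 19 (MED16, MED25, MED26 and MED29) and 1 or 2 on each of the others. Both members of the X chromosome, MED12 and MED14, are large subunits. The genes spanned from 2.18 kb for MED11 to 324 kb for MED13L.

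Promoter sequences of RefSeq, from 250 bases before to 50 after the start site (build GRCh38.p14), were at hand for 21 of the 29 members and for 9764 genes of the table. The median GC content was 58.0% in the members' promoters and 65.3% in all, and the ratio of observed to expected CpG had medians of 0.867 and 0.847. Motifs were searched on both strands. The TATA box letters TATAAA were in 2 of 21 (MED7 and MED16), against 5.25% of all promoters. The GC box GGGCGG was in 13 (71.1% of all), the CCAAT box in 7 (37.1%), the ETS letters CCGGAAG in 7 (20.2%), the cyclic AMP element TGACGTCA in 1 (3.34%) and the NRF1 letters GCGCATGCG in 1 (3.83%), the last 2 both in MED18. The letters AAGATGGCG, known as a core of the YY1 motif, were in 4 members (19.0% of 21), against 4.12% of all promoters. These 4 matches are printed here because this motif had the largest difference in share between members and all promoters, a choice made after the shares were seen. The letters of the motif are in capitals, and each sequence is written 5' to 3' on the strand of its gene.

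MED1, chr17:39451230-39451259, minus strand, motif beginning 15 bases after the start site: ttccgttggggAAGATGGCGgcggcctcga
MED16, chr19:893147-893176, minus strand, motif beginning 22 bases after the start site: tgttaccgaggAAGATGGCGgcgccagacc
MED18, chr1:28328871-28328900, plus strand, reverse complement of the motif, beginning 158 bases before the start site: ccaaaggaggcCGCCATCTTtcatacagca
MED25, chr19:49818039-49818068, plus strand, motif beginning 240 bases before the start site: gccccgctcaAAGATGGCGgctgactgagc

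The motif lay just after the start site in MED1 and MED16 and far before it in MED18 and MED25. A match of letters is a description of these windows, and the windows were not linked to a measurement of binding. The levels of the 4 genes per kilobase were 3.57 for MED1, 3.90 for MED16, 1.88 for MED18 and 2.95 for MED25, so they ran from below the median of all rows to above its 75th percentile.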

How the data were processed

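Paired-end reads of 75 bp were aligned by the authors to GRCh38.p13, and rsubread was used for counting. The submitters' processing notes, a source of the authors too, list hg38, TopHat, HTSeq, DESeq and Cufflinks without a role. The deposited table holds, per gene, a value headed logCPM, taken here as the authors' mean log2 CPM, and a gene length. The tool behind the table, its normalization and its filter on low counts are not given in the sources used here. The mean CPM values sum to 1005541 over the rows. Columns of fold change, F statistic, p-value and adjusted p-value hold the authors' own comparison and were not used, so no comparison between groups, test or adjusted value was made. No library could be left out.

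Levels per kilobase are log2 CPM less the log2 of the length in kilobases. That length equals the union of the exons of GENCODE release 44 in 73.7% of the 13922 genes found there, and in 25 of the 29 members (not in MED12, MED13L, MED19 and MED25). Start and end were the same for 25 members. Canonical transcripts, gene types and overlaps were taken from that release, and promoters from RefSeq. MED27 to MED30 were counted with the head, MED19 with the middle and MED14 on its own. The calculation was tested on simulated data. All members are named. They, the modules and the lists were chosen with earlier results of these data known, and the motifs and the overlap check were added after seeing the data. Python 3.11.15, numpy 2.4.6, pandas 2.3.3 and matplotlib 3.10.9 were used.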

Additional observations from a re-analysis of the deposited data

How the results depend on the processing

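Each median was recomputed as its distance from the median of all rows. The distances were 0.56 for the head, 0.36 for the middle, 0.86 for the tail, 2.03 for MED14, 0.035 for the kinase module and 0.38 for all members, on the log2 scale. The tail and MED14 stayed above the median of all rows under each of the 8 alternatives that gave them a value, and the other modules did not. Per kilobase of the canonical transcript the distances were 0.71, 0.21, 1.63, 1.69, -0.30 and 0.52 in the same order, and without division by length they were -0.36, -0.88, 1.40, 3.15, 1.55 and 0.51. Without the lowest 25% of rows, which raises the median of the rows left, they were -0.071, -0.26, 0.24, 1.40, -0.59 and -0.18. The kinase module was also at -0.052 beside protein-coding rows only. Counting MED19 with the head put the middle at -0.030, and counting MED14 with the tail put the tail at 1.17. Moving MED27 to MED30 to the tail changed no median by more than 0.1. With exon lengths of GENCODE release 44, an alternative chosen after seeing the data, the kinase module was at -0.59 and all members at 0.48. MED13L less MED13 was -0.86 per kilobase of all exons, 0.79 per kilobase of the canonical transcript and 0.70 without length. Between 12 and 18 members were above the median of all rows.

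No paired analysis was possible because the table has only means over libraries, and for the same reason leaving out a replicate and the alternatives for a difference between cordycepin and DMSO were not run. The unknown depth limits how far single levels can be compared, above all for MED26 and MED18, with a mean log2 CPM below 3.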
